A study of Mus musculus with 3 samples.

Results

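The NF-kappaB system of adult lung endothelial cells (ECs) was described through 10 genes, 5 encoding subunits of the transcription factor (Nfkb1, Nfkb2, Rela, Relb and Rel) and 5 encoding proteins that restrain it (Nfkbia, Nfkbib, Nfkbie, Tnfaip3 and Tnip1). The genes were chosen by name from the deposited table, and all 10 have a row among its 24346 gene symbols. RNA-seq was performed on ECs freshly sorted from the lungs of male, wild type C57BL/6J mice of 6 to 8 weeks, with no treatment other than an injected VE-cadherin antibody that labels vessels. Lungs were minced and digested with collagenase and dispase at 37 °C for 20 to 30 min, and cells were then sorted as CD31+, CD45- and Podoplanin-. The 3 libraries, named S38, S44 and S52, form 1 group, so no contrast between conditions was possible, and no source used here says whether they came from separate mice. Spread between libraries may therefore be technical. The values are FPKM (fragments scaled by gene length and by sequencing depth), which can be compared between genes because they are given per length.

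NF-kappaB acts as dimers of its subunits, which share a DNA-binding Rel homology region. RelA, RelB and c-Rel carry a transactivation domain, whereas Nfkb1 and Nfkb2 encode the precursors p105 and p100, which are processed to p50 and p52. In unstimulated cells the dimers are held in the cytoplasm by IkB proteins, until the IKK kinase complex marks the inhibitor for degradation. In endothelium the pathway is known for turning on adhesion molecules and chemokines in response to TNF, IL-1 or bacterial products, and several of its targets are its own inhibitors, which close a negative feedback loop.

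Promoters are shown first because NF-kappaB binds a short DNA site near the genes it controls. RefSeq windows from 250 bases before to 50 bases after a transcription start (GRCm38.p6, the mm10 build) were available for 8 of the members, all except Nfkb1 and Relb. The windows were searched on both strands for the kappaB consensus, the 10-base site to which NF-kappaB dimers bind. A match was found for 6 of the 8 genes, namely Nfkb2, Rel, Nfkbia, Nfkbie, Tnfaip3 and Tnip1, and for neither Rela nor Nfkbib. Of all 27025 genes with a window 9.55% held a match, and of all 32851 windows 8.46%. Several of these genes are known as NF-kappaB targets, so their count is a description, not tested, and a match is not evidence of binding. Below, the 140 bases before the start are printed 5′ to 3′ on the strand of the gene, with the matches in capitals. Capitals can span over 10 bases where matches overlap on the same or the opposite strand.
Nfkbia (chr12:55492648-55492787, minus strand): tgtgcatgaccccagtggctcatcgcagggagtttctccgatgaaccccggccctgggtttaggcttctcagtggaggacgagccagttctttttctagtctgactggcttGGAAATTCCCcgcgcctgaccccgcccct
Tnfaip3 (chr10:19015411-19015550, minus strand): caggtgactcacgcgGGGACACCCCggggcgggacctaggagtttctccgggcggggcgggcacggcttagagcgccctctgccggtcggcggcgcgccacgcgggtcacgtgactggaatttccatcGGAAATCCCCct
Tnip1 (chr11:54962941-54963080, minus strand): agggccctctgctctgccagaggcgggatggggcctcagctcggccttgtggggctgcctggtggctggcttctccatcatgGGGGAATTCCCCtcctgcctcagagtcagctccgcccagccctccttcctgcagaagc
Nfkbie (chr17:45555560-45555699, plus strand): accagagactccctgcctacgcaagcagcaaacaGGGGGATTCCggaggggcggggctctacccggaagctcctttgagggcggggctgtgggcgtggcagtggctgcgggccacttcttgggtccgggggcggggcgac
Rel (chr11:23770970-23771109, minus strand): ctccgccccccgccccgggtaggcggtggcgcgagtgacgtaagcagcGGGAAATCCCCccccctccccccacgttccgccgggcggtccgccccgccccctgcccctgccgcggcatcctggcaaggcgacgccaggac

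The match of Nfkbia lay from -29 to -20 relative to the start, and that of Tnip1, where 4 matches overlap on both strands, from -58 to -47. Tnfaip3 had a match from -125 to -116 and another from -12 to -3 at the first of its 2 starts. The match of Nfkbie lay from -106 to -97 and that of Rel, where 3 matches overlap, from -92 to -82. Nfkb2 has 3 annotated starts, and each of its windows held at least 1 match. A stretch of 29 bases around the matches from -39 to -29 at the first start shows them.
Nfkb2 (chr19:46304689-46304717, plus strand): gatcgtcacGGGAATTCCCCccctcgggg

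**Figure D1:**
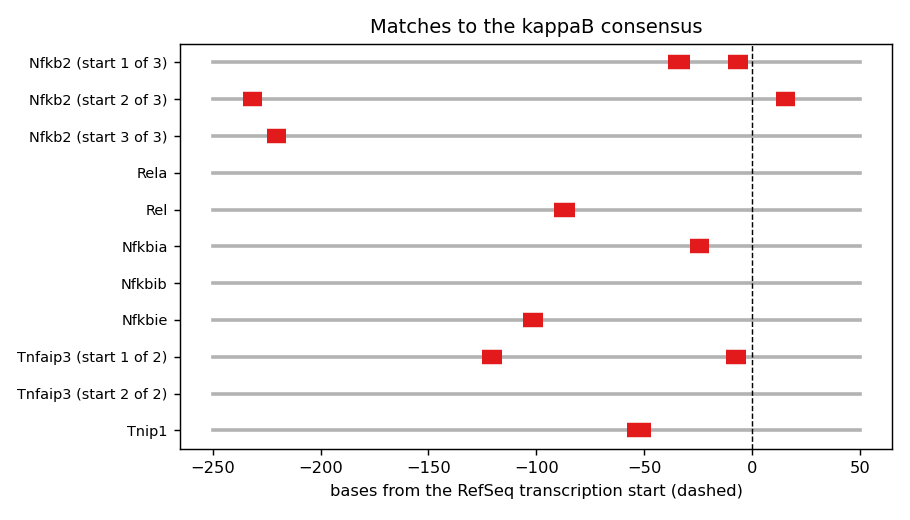
Positions of kappaB consensus matches (red bars) in the promoter windows of 8 members (grey lines), in bases from the RefSeq start, which is drawn as a dashed line. Windows of 6 genes hold a match, and those of Rela and Nfkbib hold none. The match at the third start of Nfkb2 is a site also drawn at its second start.

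The libraries were deep for genes at the level of the members. Most low values lay near steps of whole fragments, from which 37700000, 38800000 and 34700000 fragments were estimated for S38, S44 and S52. At these depths the 3 values of Nfkbie, the lowest member, stand for about 252, 311 and 257 fragments, a counting error of 5.67% to 6.31%, and the counting error of the other members was at most 2.66%. Endothelial markers were high in every library (median of 10 markers, 482, 533 and 484 FPKM), as the label requires. Platelet and alveolar markers were lower in S52 than in the other libraries, with a median of 5 platelet genes of 160, 148 and 8.69 FPKM in S38, S44 and S52, and of 5 alveolar type 2 genes of 182, 121 and 33.7 FPKM. FPKM columns summed to 1153890, 1603596 and 1419351, and a value compared between libraries depends on this scaling, as given below.

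All 10 members had a mean of at least 1 FPKM, a level that 48.3% of all genes in the table reached. Of the members 8 had a mean of at least 10 FPKM, against 25.7% of all genes. The median of the 10 means was 22.3 FPKM, and the median over all genes was 0.784 FPKM. The plot of members by library spans from Nfkbia, above 98.8% of all genes, to Nfkbie, above 60.7% of them.

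**Figure D2:**
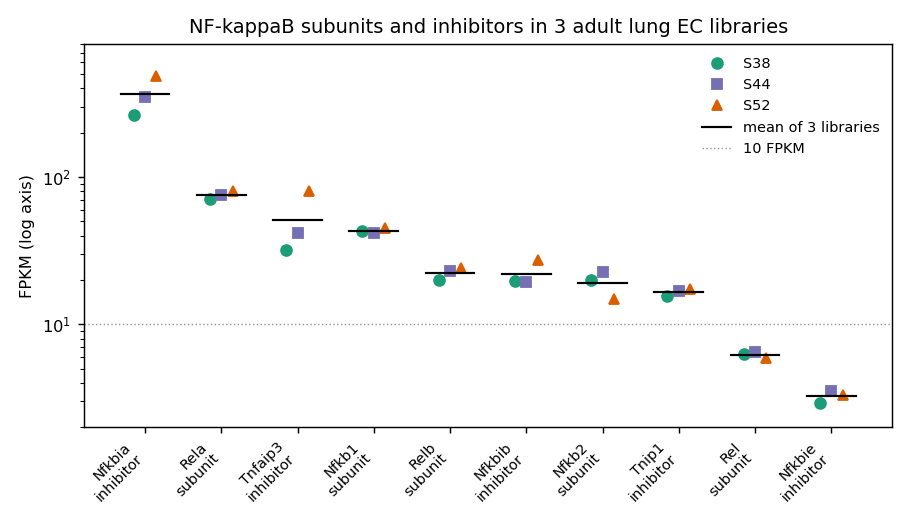
FPKM of the 10 members on a log axis, with a point for each of the 3 libraries and a black bar for their mean. Nfkbia stands above all others in each library, Rel and Nfkbie lie below the dotted line at 10 FPKM, and the libraries separate most for Tnfaip3.

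Among the subunits, Rela was the most abundant. Rela, the gene of p65, which carries the main transactivation domain of the canonical dimer, lies on chromosome 19 from 5637483 to 5648130 (plus strand, 11 exons in its single basic GENCODE M21 transcript). The FPKM was 70.5 (S38), 75.1 (S44) and 80.3 (S52), averaging 75.3 ± 4.91 (SD, n = 3). In the values as deposited the libraries were close to each other. The coefficient of variation (CV, the SD as a percent of the mean) was 6.52%.

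Nfkb1, which encodes p105 and thereby p50, the usual partner of p65, lies on chromosome 3 from 135584655 to 135691547 (minus strand). The FPKM was 43.1 (S38), 41.9 (S44) and 44.8 (S52), averaging 43.3 ± 1.46 (SD, n = 3). In the values as deposited the CV was 3.37%, and 3.35% of genes at 1 FPKM or above had a lower one. The FPKM ratio of Rela to Nfkb1 was 1.64, 1.79 and 1.79 in the 3 libraries, so the order of the canonical pair was the same in each.

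The subunits of the non-canonical pathway, which runs through the kinase NIK and the processing of p100, were lower. Relb (chromosome 7, 19606217 to 19629438, minus strand) measured 19.9, 23.1 and 24.3 FPKM in the same library order, averaging 22.5 ± 2.26 (SD, n = 3). Nfkb2 (chromosome 19, 46304320 to 46312385, plus strand) measured 19.9, 22.7 and 14.8 FPKM, averaging 19.1 ± 4.02 (SD, n = 3). S52 was the lowest library for Nfkb2 and the highest for Relb, and the ranges of the genes overlapped. A stretch of 800 bp of the longest Nfkb2 transcript is shared with exons of genes on the other strand, among them Psd, at a mean of 4.15 FPKM, and the library kit keeps no strand, so part of the Nfkb2 signal cannot be assigned with certainty.

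Rel, the gene of c-Rel, a subunit best known from lymphocytes and myeloid cells, was the lowest subunit. It lies on chromosome 11 from 23736847 to 23770970 (minus strand) and measured 6.29, 6.46 and 5.87 FPKM, averaging 6.21 ± 0.300 (SD, n = 3). As deposited, the CV was 4.83%. The FPKM ratio of Rela to Rel was 11.2, 11.6 and 13.7, a mean difference of 3.40 ± 0.14 (SD, n = 3) in log2(FPKM + 1). An exact permutation test of this difference, two-sided over the 3 libraries, gave p = 0.25, the smallest value that 3 libraries allow. The level of Rel in S52 was 0.934 times that in S38. The summed level of 10 leukocyte markers was 126, 118 and 62.6 FPKM, and 8 of the 10 were lowest in S52. Ptprc, the CD45 gene, measured 4.30, 2.06 and 0.434 FPKM, and Cd3e, the lowest of the list at a mean of 0.156 FPKM, was listed at 0 in S52. The other two did not fall there, with Lcp1, which made up most of the sum in S52, at 39.2, 49.5 and 46.7 FPKM and Csf1r at 1.25, 1.85 and 1.30 FPKM. The part of leukocytes in the level of Rel was not tested.

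Of the summed FPKM of the 5 subunits, Rela made up 45.3% ± 1.72 and Nfkb1 26.0% ± 1.15, while Relb made up 13.5% ± 0.916, Nfkb2 11.5% ± 2.49 and Rel 3.73% ± 0.252 (SD, n = 3 for each). As deposited, the sum itself varied little, from 160 FPKM (S38) through 169 (S44) to 170 (S52).

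Among the inhibitors, Nfkbia was the highest member in every library. Nfkbia encodes IkB-alpha, which takes NF-kappaB dimers out of the nucleus and is resynthesised as soon as they are active. It lies on chromosome 12 from 55489410 to 55492647 (minus strand, 6 exons) with FPKM values of 263 (S38), 351 (S44) and 488 (S52), averaging 368 ± 113 (SD, n = 3). S52 was the highest and S38 the lowest, 1.85-fold apart. Nfkbia exceeded Rela 3.74-fold in S38, 4.67-fold in S44 and 6.08-fold in S52. The mean difference was 2.23 ± 0.35 (SD, n = 3) in log2(FPKM + 1), and the exact permutation test, two-sided, again gave p = 0.25, the smallest possible.

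The other IkB genes were far below. Nfkbib, which encodes IkB-beta (chromosome 7, 28758251 to 28767512, minus strand), measured 19.6, 19.5 and 27.2 FPKM, averaging 22.1 ± 4.42 (SD, n = 3). Its transcript shares 314 bp with Ccer2 on the other strand, a gene with no row in the table, so its value is uncertain to that extent. Nfkbie, which encodes IkB-epsilon (chromosome 17, 45555703 to 45563169, plus strand), measured 2.92, 3.52 and 3.31 FPKM, averaging 3.25 ± 0.307 (SD, n = 3), and was the lowest member in every library. Nfkbia made up 93.4% ± 1.08 of the summed FPKM of these 3 IkB genes, Nfkbib 5.77% ± 0.944 and Nfkbie 0.867% ± 0.202 (SD, n = 3 for each). The sum of the 3 IkB genes exceeded that of the 5 subunits in each library, by 1.79-fold in S38, 2.21-fold in S44 and 3.05-fold in S52.

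Tnfaip3 and Tnip1 act upstream of the IkB proteins. Tnfaip3 encodes A20, a ubiquitin-editing enzyme that shuts off signalling at the receptor complex, and Tnip1 encodes ABIN1, an A20-binding adaptor. Tnfaip3 (chromosome 10, 19000910 to 19015657, minus strand) had FPKM values of 31.9 (S38), 41.4 (S44) and 80.8 (S52), averaging 51.4 ± 26.0 (SD, n = 3). It was the member with the widest spread, with a CV of 50.5%, and S52 stood 2.54-fold above S38 and 1.95-fold above S44. Tnip1 (chromosome 11, 54910785 to 54962917, minus strand) measured 15.6, 16.9 and 17.3 FPKM, averaging 16.6 ± 0.864 (SD, n = 3), with a CV of 5.20% as deposited. The FPKM ratio of Tnfaip3 to Tnip1 was 2.04, 2.45 and 4.68 in the 3 libraries.

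Ordered by their means, the members ran from Nfkbia through Rela, Tnfaip3, Nfkb1, Relb, Nfkbib, Nfkb2 and Tnip1 to Rel and Nfkbie. Of the 9 pairs of neighbours in this order, 4 had ranges that did not overlap between libraries: Nfkbia above Rela, Nfkb1 above Relb, Tnip1 above Rel, and Rel above Nfkbie. In the other 5 pairs the ranges overlapped. Tnfaip3 was below Nfkb1 in S38 and S44 and above it in S52, where it was also level with Rela (80.8 against 80.3 FPKM). Relb, Nfkbib, Nfkb2 and Tnip1 lay between 14.8 and 27.2 FPKM. From the highest, their order was Relb, Nfkb2, Nfkbib and Tnip1 in both S38 and S44. In S38, however, Relb, Nfkb2 and Nfkbib were nearly level, at 19.9, 19.9 and 19.6 FPKM. Their counting errors there were 2.54%, 1.9% and 2.66%, so their order in S38 was not resolved. Relb and Nfkb2 were also close in S44, at 23.1 and 22.7 FPKM. In S52 the order was Nfkbib, Relb, Tnip1 and Nfkb2.

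In the values as deposited, differences between the libraries were small for most members and largest for Tnfaip3 and Nfkbia. For 7 of the 10 the highest library was less than 1.5-fold above the lowest. This was counted for the members only, so it cannot be set against all genes. The median CV was 9.75%, beside 17.6% for all genes at 1 FPKM or above and 13.9% for those at 10 FPKM or above. These medians were not taken under the rescalings. Only Tnfaip3 of the members was over 2-fold apart between its highest and lowest library, where 20.1% of 11770 genes at 1 FPKM or above were. It was also the only member over 2-fold higher in S52 than in S38, as were 3.19% of the genes tested. Without S38 or without S52 no member was over 2-fold apart, and the number of all such genes also fell, from 2363 to 1572 without S38 and to 600 without S52. S52 was the highest library for 7 of the members, against 33.9% of the genes tested, and S44 for the other 3 (Nfkb2, Rel and Nfkbie).

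This last count rested on the scaling, and so did the spread of single members. Rescaling every library to the same sum shifted the median log2 ratio of all genes at 1 FPKM or above from -0.08 to -0.34 for S52 over S38 and from -0.03 to -0.44 for S44 over S38, and left 3 members highest in S52 and 7 highest in S38. Dividing each library by its median ratio to the others left 7 members highest in S52. The share of all genes highest in each library was not counted under either rescaling. These counts may therefore follow the genes at large. Nfkbia, Nfkbib and Tnfaip3 were highest in S52 under each of the 3 scalings. The ratio of S52 to S38 ranged over the scalings from 1.51 to 1.99 for Nfkbia, from 1.13 to 1.49 for Nfkbib and from 2.06 to 2.73 for Tnfaip3.

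**Figure D3:**
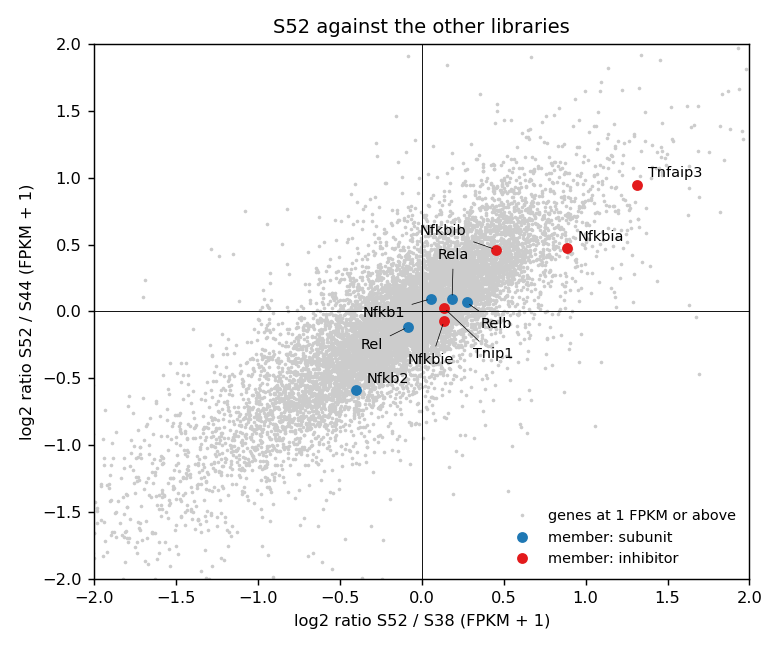
Each point is a gene, placed by the log2 ratio of S52 to S38 (x axis) and of S52 to S44 (y axis), both on FPKM + 1, with subunits in blue, inhibitors in red and all 11770 genes at 1 FPKM or above in grey (348 lie outside the axes). Tnfaip3, at 1.32 and 0.95, and Nfkbia, at 0.89 and 0.48, lie up and to the right, Nfkb2, at -0.40 and -0.59, lies down and to the left, and both axes share S52.

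S52 differed from the other libraries in more than these genes. The summed level of 5 platelet markers was 1726, 1364 and 40.3 FPKM in S38, S44 and S52, that of 5 alveolar type 2 markers 3778, 3164 and 755 FPKM, and that of 5 airway markers 2780, 2316 and 401 FPKM. All 15 of these markers were lowest in S52, and 1 of them, Bpifa1, was listed at 0 there. Of the leukocyte markers 8 of 10 were lowest in S52. Fibroblast markers summed to 75.7, 57.6 and 44.2 FPKM, with 2 of 5 lowest in S52. Mural markers, with sums of 115, 60.2 and 111 FPKM, had none lowest in S52, and endothelial markers summed to 6369, 7058 and 6291 FPKM. A list of 8 genes that respond to tissue dissociation, with Fos, Jun and Atf3 among them, had sums of 2442, 3020 and 2993 FPKM, and 2 of its genes were highest in S52. The part of these differences in the levels of Nfkbia and Tnfaip3 was not tested. In bulk samples, fewer cells of a type and less RNA per cell cannot be told apart.

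The shape of a member's values over the 3 libraries was compared with that of the 6268 other genes at 10 FPKM or above, as the Euclidean distance between centred log2(FPKM + 1) values. The genes nearest to Nfkbia were Nuak2, a stress-activated kinase, at 11.0, 15.1 and 21.4 FPKM (distance 0.0075), Mepce at 47.6, 62.7 and 88.8 FPKM (0.017), and Cklf at 7.99, 11.2 and 15.9 FPKM (0.021). Within a distance of 0.1 of Nfkbia lay 28 genes. Rela, whose values as deposited are nearly flat, had 567 genes within that distance, with Ctbp1, Tfe3 and Hgf nearest. Among the 8 members at 10 FPKM or above, Rela and Tnip1 were closest (0.051), and Nfkb2 and Tnfaip3 farthest apart (1.33). With 3 libraries these distances are a description.

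The rest of the pathway was described by 7 lists ordered by role, as the plot of pathway genes by role shows. Differences over 2-fold in these lists were called on the values as deposited and were not checked under the rescalings. Of the other genes of the IkB family, all 5 had a mean of at least 1 FPKM and 2 of at least 10 FPKM. Nfkbiz, which encodes the inducible nuclear protein IkB-zeta, was the highest, at 86.7, 131 and 78.9 FPKM. It was thus above Rela in S38 and S44 and below it in S52, and it was highest in S44, unlike Nfkbia. Bcl3, a nuclear IkB protein that binds p50 and p52 dimers, followed at 29.7 ± 6.11 FPKM (SD, n = 3), and Nfkbil1 at 8.51 ± 2.99 FPKM. The lowest was Ankrd42 at 1.14 ± 0.545 FPKM (SD, n = 3).

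A list of 14 genes covered the IKK complex, IKK-related and upstream signalling genes, and linear ubiquitin signalling, which activates the complex. Of these, 13 had a mean of at least 1 FPKM and 9 of at least 10 FPKM, with a median of 18.8 FPKM. The genes of the IKK subunits were at 25.5 ± 1.31 (Ikbkb), 20.3 ± 0.850 (Chuk) and 4.98 ± 1.39 FPKM (Ikbkg, SD, n = 3 for each). Rbck1, which encodes a subunit of the linear ubiquitin ligase, led the list at 57.0 ± 7.56 FPKM, followed by the kinase genes Ripk1 at 44.5 ± 10.3 FPKM and Tbk1 at 29.7 ± 2.66 FPKM (SD, n = 3 for each). At 10 FPKM or above, Sharpin, a further subunit of that ligase, was the only gene of the list over 2-fold apart between libraries. As deposited it was at 18.2, 22.7 and 11.3 FPKM, 2.01-fold apart and thus just over that threshold. Ikbke, the inducible IKK-related kinase, was the lowest at 0.397, 0.286 and 0.839 FPKM. All 14 adaptor and E3 ligase genes had a mean of at least 1 FPKM, and none differed over 2-fold as deposited. Myd88, the adaptor of Toll-like and IL-1 receptors, was at 78.6 ± 9.66 FPKM, Birc3, which encodes the ligase cIAP2, at 34.6 ± 7.25 FPKM, and Fbxw11, a receptor subunit of the ligase that recognises phosphorylated IkB, at 29.9 ± 1.18 FPKM (SD, n = 3 for each). Traf1 was the lowest at 1.70 ± 0.528 FPKM (SD, n = 3).

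Of 12 further genes that restrain the pathway, 8 had a mean of at least 10 FPKM. Tax1bp1, an adaptor of A20, was at 116 ± 11.2 FPKM, above Tnfaip3 itself in every library, and Rnf11, another partner of A20, was at 72.9 ± 5.33 FPKM (SD, n = 3 for each). Commd1 was at 56.6 ± 6.04 FPKM (SD, n = 3). Zc3h12a, which encodes the RNase Regnase-1, was at 25.8, 31.8 and 15.3 FPKM, lowest in S52, where Tnfaip3 was highest. Tnip3, a paralogue of Tnip1, was at 0.0219 and 0.170 FPKM in S38 and S44 and listed at 0 in S52.

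Receptor genes had a median of 10.5 FPKM and ligand genes a median of 1.90 FPKM. Of 12 receptor genes 6 had a mean of at least 10 FPKM. Tnfrsf1a, the main TNF receptor, was at 153 ± 17.8 FPKM and Ltbr, the lymphotoxin-beta receptor that feeds the non-canonical pathway, at 51.2 ± 4.45 FPKM (SD, n = 3 for each). Tnfrsf12a, the receptor of the cytokine TWEAK, was at 94.3, 70.4 and 200 FPKM, 2.84-fold apart and highest in S52. Tnfrsf11a, which encodes RANK, was lowest at 0.102 ± 0.0351 FPKM (SD, n = 3). Of 9 ligand genes only Tnfsf12, which encodes TWEAK, at 33.0 ± 6.64 FPKM, and Il1a at 16.8 ± 5.60 FPKM (SD, n = 3 for each) had a mean of at least 10 FPKM. Il1b was at 7.44, 5.23 and 0.930 FPKM, lowest in S52. Lta was listed at 0 in S38 and S52 and was at 0.189 FPKM in S44.

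Of 22 genes known as targets of NF-kappaB, 20 had a mean of at least 1 FPKM and 15 of at least 10 FPKM, with a median of 19.8 FPKM. The highest were Ier3, a stress-induced survival gene, at 884, 1124 and 1873 FPKM, Irf1, an interferon-responsive transcription factor gene, at 404, 636 and 877 FPKM, and Icam1, the leukocyte adhesion receptor, at 453, 568 and 554 FPKM. Ier3 and Irf1 were lowest in S38 and highest in S52, as was Nfkbia, whereas Icam1 was nearly level between S44 and S52. Cxcl10, an interferon-inducible chemokine gene, was at 24.5, 40.6 and 78.1 FPKM and had the widest ratio of the targets at 10 FPKM or above, 3.19-fold.

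The targets did not share a single order of the libraries. Sele, which encodes E-selectin, was at 13.0, 7.55 and 15.9 FPKM, lowest in S44. Il6 was at 33.7, 16.7 and 17.1 FPKM, highest in S38. Csf2 was at 0.0900 and 0.677 FPKM in S38 and S44 and listed at 0 in S52. Of the target genes, 16 had a promoter window and 9 of these held a kappaB match, beside 9.55% of all genes with a window. The list was made of known targets, so this count is a description, not tested.

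**Figure D4:**
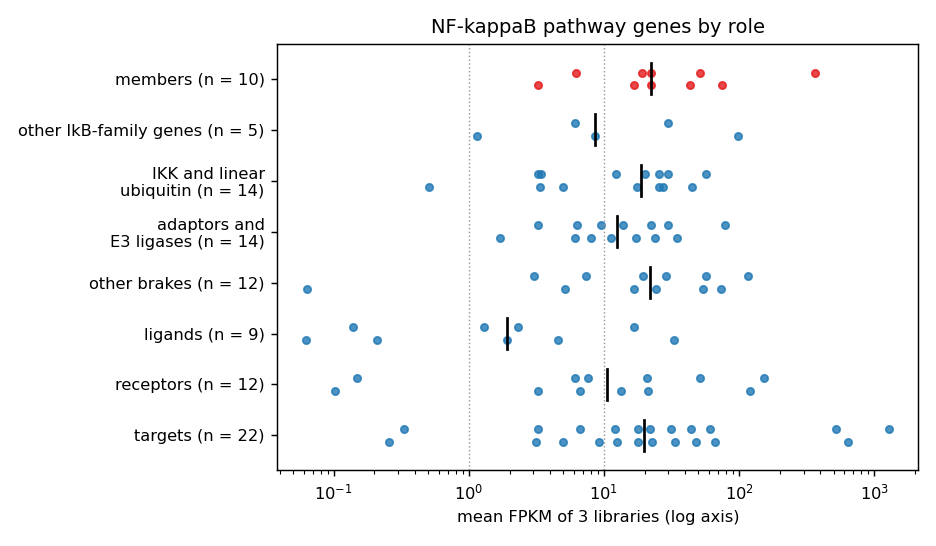
Mean FPKM over the 3 libraries (log axis) of the 10 members (red) and of the genes of 7 pathway lists (blue), with black bars for the median of each list and dotted lines at 1 and 10 FPKM. The members have a median of 22.3 FPKM, ligand genes the lowest median, 1.90 FPKM, and target genes the widest range, from 0.256 to 1294 FPKM.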

How the data were processed

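Libraries were made from poly-A RNA with a kit that keeps no strand and read as pairs of 51 bp. The deposited values are FPKM, which the authors computed for each gene symbol on mm10. The submitters' processing notes name bcl2fastq 2.17, FastQC 0.11.5, Trimmomatic 0.36, TopHat2 2.1.0 and Cufflinks 2.2.1, without their roles, and the study's methods describe STAR and HTSeq counts for its own contrasts. The gene annotation is not given in the sources used here.

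Values were read as deposited, and all 3 per-sample columns were used. A gene was counted as present at a mean of at least 1 FPKM. Differences between genes used log2(FPKM + 1), which understates those of low genes, and an exact permutation test by sign flips. Because no counts were used, sequencing depth was inferred after the values were seen, from 7077 genes for which GENCODE M21 gives only 1 basic transcript, 800 to 4000 bp long. Values multiplied by length (minus 150 to 200 bp) came within 0.15 of whole fragments for 76.3% to 79.0% of 169 to 374 low values per library. The step was searched to make these values whole. It was tested on data simulated with the same formula and transcript lengths. That test could not check whether these lengths apply to the deposited values. Counting errors cover counting only. Of the read-length windows of the member transcripts, those shared with other genes lay in Nfkb2 (704 of 4238), Nfkbib (266 of 2075) and Rel (9 of 7406).

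The members and lists were chosen with earlier results of these data known. Named pathway genes are the 3 highest and the lowest of each list and those at 10 FPKM or above that differed over 2-fold between libraries, at most 5 per list. Ptprc, Cd3e, Lcp1, Csf1r, Bpifa1, Psd, Ikbkb, Chuk and Ikbkg were named after their values were seen. Otulin was also listed under its older symbol, which has no row. Promoter sequences are from RefSeq on GRCm38.p6 and gene positions from GENCODE M21 on GRCm38. Analyses used Python 3.11.15, numpy 2.4.6 and pandas 2.3.3.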

Additional observations from a re-analysis of the deposited data

How the results depend on the processing

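Leaving out S38, S44 or S52, rescaling to a common sum, dividing by the median of ratios, another pseudocount (0.1) and other thresholds (1 FPKM on the mean, or 10 FPKM in every library) were tried. The counts of members, target genes and IKK genes at 10 FPKM or above stayed within 1.5 times their value without any 1 library and under both rescalings and both other thresholds. For the threshold of 1 FPKM this was fixed in advance for members and target genes, since their lists hold only 10 and 22 genes. The IKK count could have left that range only if all 14 genes had passed. Nfkbia was above Rela, and Rela above Rel, in each library, so leaving 1 out or the other pseudocount could not reverse them. Without 1 library the mean log2 difference was 2.05 to 2.40 for Nfkbia minus Rela. For Rela minus Rel it was 3.32 to 3.46. With every library brought to a sum of 1000000, the median level of the members was 16.2 in place of 22.3 FPKM, since the columns sum to more than that and every value is divided down. Without one library, the number of members over 2-fold apart ranged from 0 to 1 and that of all genes from 600 (without S52) to 1741, and at 10 FPKM or above it was 548, where fewer genes are tested. For single members, only the common sum moved a mean by more than its SD, for 8 of 10. For single members, leaving out a library and both rescalings were added after the data were seen. No paired analysis was possible because the libraries form 1 group. The 3 libraries limit every test to p = 0.25 or above (exact permutation test), and for a gene of 2000 bp listed at 0 the limit (3 fragments) was 0.0430, 0.0420 and 0.0481 FPKM in S38, S44 and S52.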
